A study of Mus musculus with 6 samples.

Results

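The 8 genes described here encode secreted proteins of the pericellular matrix: periostin (Postn), tenascin C (Tnc), thrombospondins 1 and 2 (Thbs1, Thbs2), SPARC (Sparc), fibronectin (Fn1), collagen triple helix repeat containing 1 (Cthrc1) and the TGF beta induced protein (Tgfbi). They were taken from a list of gene names drawn up with earlier results of these data known, and all 8 were measured among 18193 genes. Each gene was read from 1 probe set, chosen by the highest mean log2 value over the 6 arrays among those annotated to that gene alone, so the mean level is a description and not a result. In all, 18 probe sets were annotated to these genes alone and 1 to Thbs1 together with Pald1.

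The study hybridised RNA from isolated heart cells of C57BL/6J mice to 6 arrays of 1 colour, 2 in each of 3 groups. The groups were adult cardiomyocytes from males at 8 weeks of age, released by Langendorff perfusion (digestion through the aorta), and cardiac fibroblasts and cardiomyocytes from hearts of both sexes at postnatal day 1, separated on Percoll, a density medium. Per the labels, the fibroblasts were separated by expanding dissociated cells on a dish, and the absence of cardiomyocytes was checked with a mitochondrial dye. Adult and neonatal groups differ in age, sex and isolation at once, and these cannot be told apart. Adult cardiomyocytes and neonatal fibroblasts differ in cell type as well. In both comparisons with fibroblasts, cell type and the expansion on a dish cannot be told apart. Nothing in the labels tells whether replicate arrays hold separate preparations, so the p-values may not reflect a spread between animals. Levels of cell type markers also differed between the arrays of a group, as given below.

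Groups followed the source name. For both neonatal replicate 1 arrays the title names the opposite cell type, so 12 cardiomyocyte markers (such as the myosin gene Myh6 and the troponin gene Tnni3) were read first. Their median log2 value was 14.05 and 14.04 on the adult arrays, 7.72 and 11.53 on the fibroblast arrays (replicates 1 and 2), and 14.12 and 13.96 on the neonatal cardiomyocyte arrays. Of the fibroblast arrays, replicate 2 was the higher in 12 of 12 of these markers. Replicate 1 was the higher in 12 of 12 macrophage and leukocyte markers, with a median of 11.56 on replicate 1 and 8.42 on replicate 2. The 12 fibroblast markers had medians of 7.95 and 9.40 in adult cardiomyocytes, 12.14 and 11.46 in fibroblasts, and 9.31 and 8.93 in neonatal cardiomyocytes. Across all genes, neonatal cardiomyocyte replicate 2 correlated at 0.958 with fibroblast replicate 2 and at 0.957 with its own replicate.

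Matricellular proteins sit in the matrix without forming its load-bearing fibres, and signal to cells through integrins and other receptors. In the heart they are made mainly by fibroblasts and other nonmuscle cells, are prominent in the fetal and newborn heart, fall as it matures, and return after injury. Fibronectin is both a structural fibre and the scaffold on which collagen and several of the other proteins assemble. Periostin and the TGF beta induced protein share fasciclin domains, and the thrombospondins share a trimeric architecture. Several of the genes, periostin and fibronectin among them, are induced by TGF beta, which thrombospondin 1 can in turn release from its latent form.

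On the group means, all 8 genes had the same order: fibroblasts highest, then neonatal cardiomyocytes, then adult cardiomyocytes. The end groups of that order differed past the threshold for 6 genes, and neighbouring groups for none. The 3 comparisons share arrays, so their results are given side by side and are not separate evidence. In these RNA samples, fewer cells of a type and less RNA per cell cannot be told apart. The 8 epicardial and mesothelial markers also had their lowest medians in adult cardiomyocytes, at 5.58 and 6.43, against 10.28 and 8.05 in fibroblasts, and 7.66 and 8.11 in neonatal cardiomyocytes, and their part in the results was not tested.

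**Figure D1:**
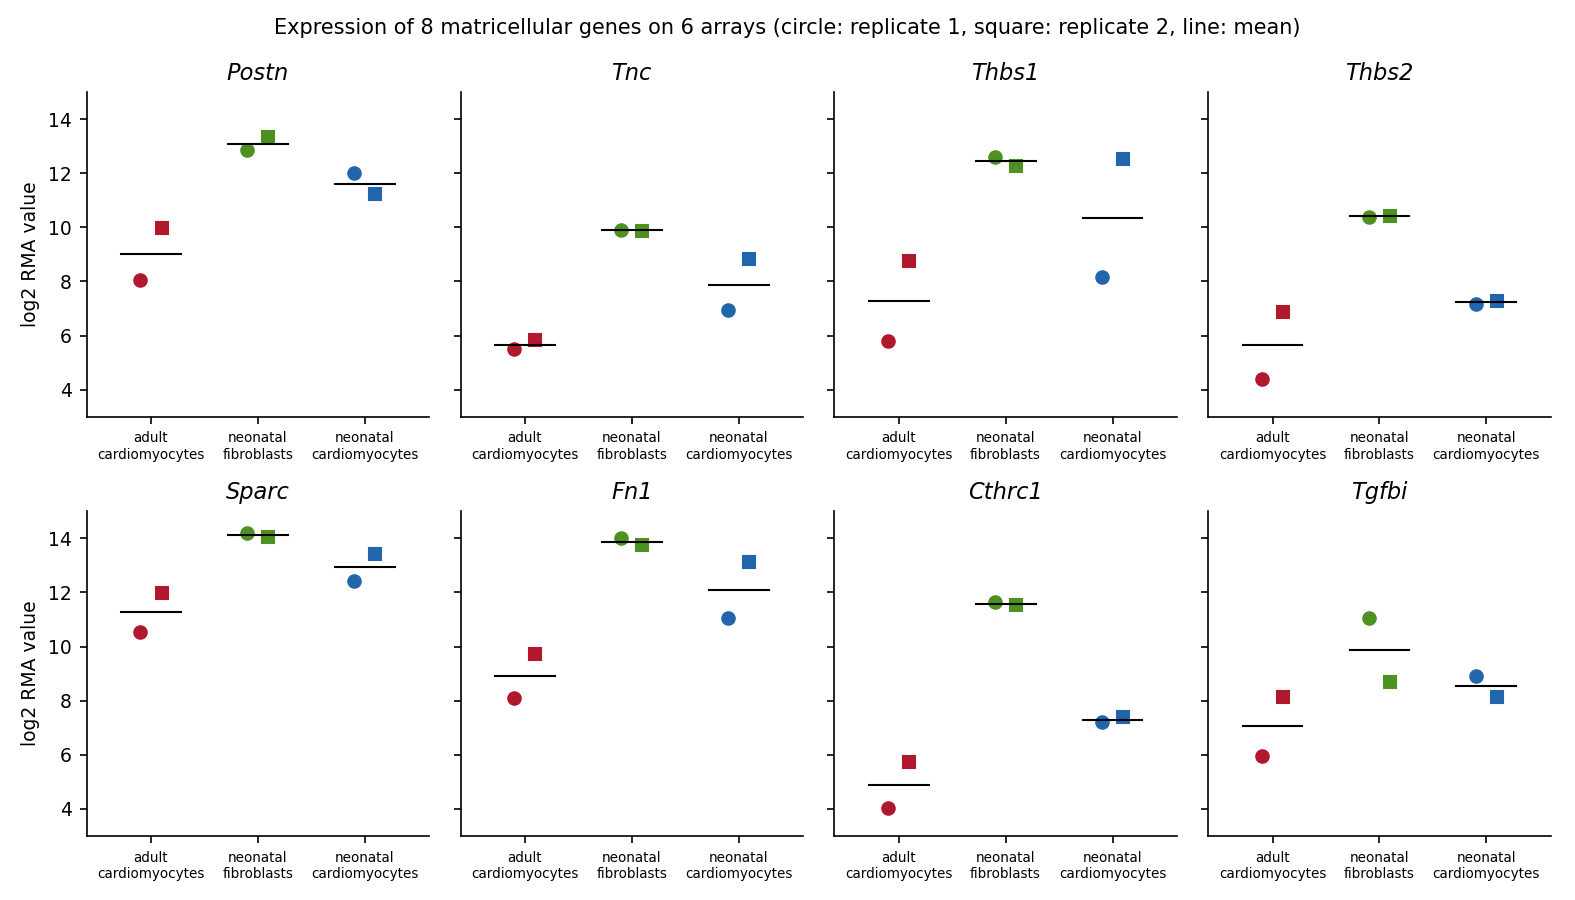
Log2 RMA value (y axis) of each gene on the 6 arrays, by group; circles are replicate 1, squares replicate 2 and lines the group means. Fibroblast arrays sit together for 7 genes, while Tgfbi reads 11.04 and 8.68 there, and Thbs1 on neonatal cardiomyocyte replicate 2 (12.53) reaches the fibroblast level.

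Cthrc1, a secreted protein linked to fibroblast migration and Wnt signalling, had the largest difference of the 8 genes in both comparisons with fibroblasts, but was behind Fn1, Thbs1 and Postn between adult and neonatal cardiomyocytes. It measured 4.05 and 5.75 in adult cardiomyocytes, 11.64 and 11.52 in fibroblasts, and 7.21 and 7.40 in neonatal cardiomyocytes (log2, replicates 1 and 2). No array of a group overlapped with another group. It fell in adult cardiomyocytes relative to fibroblasts (log2 difference −6.68 ± 0.55 SE, 103-fold lower, adjusted p = 0.00613). Adult replicate 1, at 4.05, read below the lower quartile of all probe sets on that array (4.37) and is not shown to be above background, so the size of the fold is uncertain. The difference was −5.83 without adult replicate 1 (adjusted p = 0.0613) and −7.53 without adult replicate 2 (adjusted p = 0.0450). Between fibroblasts and neonatal cardiomyocytes the difference was 4.28 ± 0.55 (19.4-fold higher in fibroblasts, rank 18 of 18193 genes), with an adjusted p of 0.0521. Between adult and neonatal cardiomyocytes it was −2.40, with an adjusted p of 0.0955.

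Postn, a fasciclin-domain protein of activated fibroblasts that takes part in collagen crosslinking, measured 8.06 and 9.99 in adult cardiomyocytes. The fibroblast arrays read 12.85 and 13.33, and the neonatal cardiomyocyte arrays 12.00 and 11.23. The groups did not overlap, and the smallest gap between arrays of neighbouring groups was between fibroblast replicate 1 and neonatal cardiomyocyte replicate 1. Postn fell in adult cardiomyocytes relative to fibroblasts (log2 difference −4.06 ± 0.68, 16.7-fold lower, adjusted p = 0.0187). Leaving out adult replicate 1 gave −3.10 (adjusted p = 0.0744) and leaving out adult replicate 2 gave −5.03 (adjusted p = 0.0462). It was 6.01-fold lower in adult than in neonatal cardiomyocytes (adjusted p = 0.122) and 2.78-fold higher in fibroblasts than in neonatal cardiomyocytes (adjusted p = 0.382).

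Fn1, the fibronectin gene, measured 8.11 and 9.71 in adult cardiomyocytes, 14.00 and 13.75 in fibroblasts, and 11.06 and 13.11 in neonatal cardiomyocytes. Arrays did not overlap between groups, but the neonatal cardiomyocyte pair was 4.14-fold apart and its replicate 2 lay close to the fibroblasts. Relative to fibroblasts, Fn1 fell in adult cardiomyocytes (log2 difference −4.96 ± 0.83, 31.2-fold lower, adjusted p = 0.0185). Without adult replicate 1 this was −4.16 (adjusted p = 0.110), and without adult replicate 2 it was −5.77 (adjusted p = 0.0616). The difference was −3.18 ± 0.83 between adult and neonatal cardiomyocytes (adjusted p = 0.120), and 1.79 ± 0.83 between fibroblasts and neonatal cardiomyocytes (adjusted p = 0.384).

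Tnc, a large glycoprotein that modulates adhesion to fibronectin, had the smallest gap of the 8 genes between the adult arrays, at 5.50 and 5.85. It measured 9.90 and 9.87 in fibroblasts, and 6.93 and 8.81 in neonatal cardiomyocytes. Again no arrays overlapped between groups. Both adult values lay close to the median of all probe sets on their arrays (5.65 and 5.63). They are not shown to be above background, so the small adult gap and the size of the fold against fibroblasts are uncertain. Tnc fell in adult cardiomyocytes relative to fibroblasts (log2 difference −4.22 ± 0.61, 18.6-fold lower, adjusted p = 0.0141). Over 16 alternative settings this difference lay between −4.39 and −2.73 and was called in 11. The other Tnc probe set, 1456344_at, differed by −2.40 when limma tested all probe sets (adjusted p = 0.0616). The other comparisons did not pass: 4.59-fold lower in adult than in neonatal cardiomyocytes (adjusted p = 0.133), and 4.05-fold higher in fibroblasts than in neonatal cardiomyocytes (adjusted p = 0.206).

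Thbs2, an inhibitor of angiogenesis and an organiser of collagen fibrils, measured 4.41 and 6.87 in adult cardiomyocytes, 10.40 and 10.41 in fibroblasts, and 7.18 and 7.28 in neonatal cardiomyocytes. Its neonatal pairs were nearly identical, and the spread lay in the adult pair. Thbs2 fell in adult cardiomyocytes relative to fibroblasts (log2 difference −4.76 ± 0.78, 27.2-fold lower, adjusted p = 0.0178). The adult pair moved that value, to −3.53 without adult replicate 1 (adjusted p = 0.0613) and to −5.99 without adult replicate 2 (adjusted p = 0.0450). Adult replicate 1, at 4.41, read close to the lower quartile of its array (4.37). It was 9.06-fold higher in fibroblasts than in neonatal cardiomyocytes (adjusted p = 0.139), and its adult minus neonatal cardiomyocyte difference was −1.58 ± 0.78 (adjusted p = 0.297).

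Sparc, a collagen-binding chaperone of matrix assembly, measured 10.54 and 11.99 in adult cardiomyocytes, 14.21 and 14.04 in fibroblasts, and 12.44 and 13.42 in neonatal cardiomyocytes. The fibroblast values lie close to the array maxima, 14.41 and 14.42, where differences can be compressed. Sparc fell in adult cardiomyocytes relative to fibroblasts (log2 difference −2.86 ± 0.57, 7.28-fold lower, adjusted p = 0.0274). It became −2.14 without adult replicate 1 (adjusted p = 0.110) and −3.59 without adult replicate 2 (adjusted p = 0.0546). It was 3.17-fold lower in adult than in neonatal cardiomyocytes (adjusted p = 0.178) and 2.29-fold higher in fibroblasts than in neonatal cardiomyocytes (adjusted p = 0.397).

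Thbs1, an activator of latent TGF beta that is also stored in platelets, measured 5.81 and 8.76 in adult cardiomyocytes, 12.60 and 12.27 in fibroblasts, and 8.18 and 12.53 in neonatal cardiomyocytes. Neonatal cardiomyocyte replicate 2 thus lay between the fibroblast arrays, and replicate 1 below adult replicate 2. No comparison passed the threshold. The adult minus fibroblast difference was −5.15 ± 1.64 (35.5-fold lower, adjusted p = 0.0858), the fibroblast minus neonatal cardiomyocyte difference 2.09 ± 1.64 (adjusted p = 0.641), and the adult minus neonatal cardiomyocyte difference −3.06 ± 1.64 (adjusted p = 0.325). With 1 or the other neonatal cardiomyocyte array left out, the adult minus fibroblast call was made, with an adjusted p of 0.0355, because the spread of that pair leaves the shared estimate. The 7 platelet and megakaryocyte markers had medians of 6.40 and 6.27 in adult cardiomyocytes, 5.83 and 5.67 in fibroblasts, and 5.81 and 5.55 in neonatal cardiomyocytes. The chemokine gene Ppbp stood apart in that list, at 7.60 and 7.60 in adult cardiomyocytes, 4.59 and 4.17 in fibroblasts, and 4.55 and 4.12 in neonatal cardiomyocytes. It rose in adult cardiomyocytes against fibroblasts (adjusted p = 0.00507) and against neonatal cardiomyocytes (adjusted p = 0.0181). Pf4, another platelet chemokine gene, was 3.09 higher in fibroblasts than in neonatal cardiomyocytes (adjusted p = 0.0802).

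Tgfbi, a fasciclin-domain protein that binds collagen and integrins, measured 5.97 and 8.13 in adult cardiomyocytes, 11.04 and 8.68 in fibroblasts, and 8.91 and 8.15 in neonatal cardiomyocytes. Fibroblast replicate 2 lay below neonatal cardiomyocyte replicate 1, so those groups overlapped, and no comparison passed. Differences were −2.81 ± 1.03 for adult cardiomyocytes minus fibroblasts (adjusted p = 0.117), 1.33 ± 1.03 for fibroblasts minus neonatal cardiomyocytes (adjusted p = 0.634) and −1.48 ± 1.03 for adult minus neonatal cardiomyocytes (adjusted p = 0.430). The array of each pair with the higher Tgfbi was also the higher in 12 of 12 leukocyte markers in all 3 groups. The medians of those markers were 6.77 and 8.11 in adult cardiomyocytes, 11.56 and 8.42 in fibroblasts, and 6.94 and 5.07 in neonatal cardiomyocytes, and their part in the Tgfbi values was not tested.

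Over the 8 genes, adult cardiomyocytes against neonatal fibroblasts gave 6 genes that fell and 0 that rose in limma, beside 11% of all 18193 genes that fell and 21% called in either direction. All 8 passed at unadjusted p under 0.05 in the lower direction, against 19.3% of all genes, and all 8 had arrays that did not overlap with adult cardiomyocytes lower, against 30.2%. The median difference was −4.49, against 0.09 over all genes. Without adult replicate 1, limma called 0 of the 8 and 0% of all genes (6 of the 8 at unadjusted p under 0.05), without adult replicate 2 it called 3 of the 8 and 1.92%, and without fibroblast replicate 1 or 2 it called 1 of the 8 and 5.95% or 10.7%. With the grouping that the titles give, 0 of the 8 and 0.753% of all genes were called. At unadjusted p under 0.05 in limma, 3 of the 8 and 3188 of 18193 genes passed with that grouping.

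Neonatal fibroblasts against neonatal cardiomyocytes gave 0 calls among the 8 genes in limma, beside 0.819% of all genes. At unadjusted p under 0.05, Cthrc1, Thbs2 and Tnc were higher in fibroblasts, 3 of 8 against 7.31% of all genes in that direction. Arrays did not overlap for 6 of 8 genes, all higher in fibroblasts, against 23.2% of all genes; Thbs1 and Tgfbi overlapped. The median difference was 1.90, against 0.02 over all genes. Higher cardiomyocyte markers on fibroblast replicate 2, and higher leukocyte and epicardial markers on fibroblast replicate 1, stood beside these values, and their part in them was not tested. Without neonatal cardiomyocyte replicate 2, the Tnc difference was 2.96. With the titles' grouping, which the cardiomyocyte markers go against on both exchanged arrays, every gene but Postn turned its sign.

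For adult against neonatal cardiomyocytes limma also made 0 calls among the 8, beside 2.3% of all genes. Cthrc1, Fn1, Postn, Tnc and Sparc were lower at unadjusted p under 0.05, 5 of 8 against 11.7% of all genes. For 7 of 8 genes the arrays did not overlap, with adult cells lower, against 23.8% of all genes, and Thbs1 overlapped. For Tgfbi the margin was narrow, with adult replicate 2 at 8.13 and neonatal cardiomyocyte replicate 2 at 8.15. The count also depends on the probe set used. Of the others, 1450663_at and 1447862_x_at (Thbs2), 1456344_at (Tnc) and 1415871_at (Tgfbi) overlapped, and 1450377_at (Thbs1) did not. The median difference over the 8 genes was −2.30, against 0.09 over all genes. Without neonatal cardiomyocyte replicate 1, Tnc fell in adult cells (−3.14, adjusted p = 0.0404). The fibroblast markers, of which 0 of 12 were called and 3 passed at unadjusted p under 0.05, had a median difference of −0.55 in the same comparison. They split, with 8 lower and 4 higher in adult cells. The epicardial and mesothelial markers were lower in adult cells in 8 of 8, with a median of −1.89, 3 at unadjusted p under 0.05 and 1 called. That gene, Tbx18, an epicardial transcription factor gene, fell by 3.29 (adjusted p = 0.0425).

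**Figure D2:**
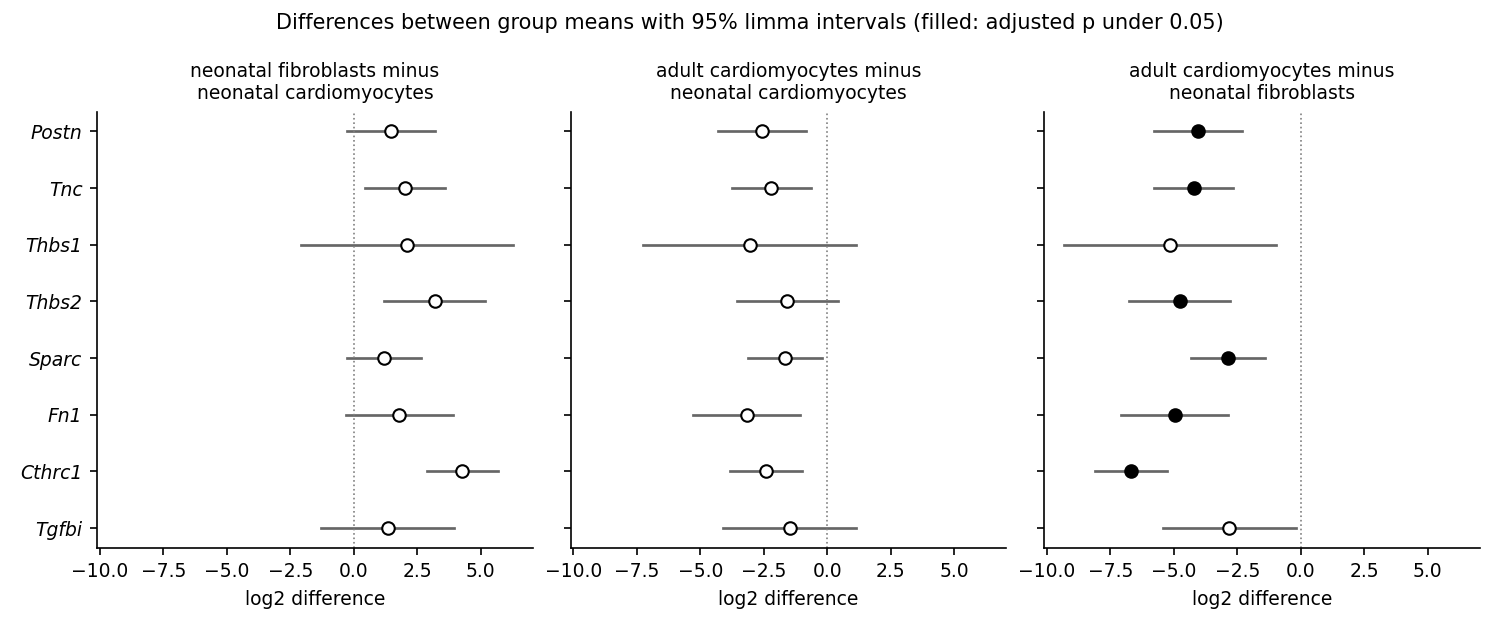
Log2 difference between group means (x axis) for each gene in the 3 comparisons, with 95% intervals from limma; filled points have an adjusted p under 0.05. Only the comparison of adult cardiomyocytes with fibroblasts has filled points, 6 of 8, and Thbs1 has the widest intervals.

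The 2 arrays of a group differed in a way that set the genes apart from each other. In adult cardiomyocytes all 8 genes were higher on replicate 2, against 51.4% of all genes, with gaps between −2.95 (Thbs1) and −0.35 (Tnc), replicate 1 minus replicate 2. By size the gap of Thbs1 ranked 10 among 18193 genes, and that of Thbs2 was −2.46. On the same array, 11 of 12 fibroblast markers, 12 of 12 leukocyte markers and 11 of 12 endothelial markers were higher, with median gaps of −1.83, −1.53 and −1.05 (replicate 1 minus replicate 2). So were 8 of 8 smooth muscle and pericyte markers (−1.06) and 6 of 8 epicardial and mesothelial markers (−0.49). Their part in the adult values was not tested.

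In fibroblasts, 7 of the genes had gaps of less than 0.5 between the arrays, and Tgfbi differed by 2.36 (replicate 1 the higher, 5.12-fold). The cardiomyocyte markers differed by −2.82 in the median between the same arrays and the leukocyte markers by 3.19, while the fibroblast markers differed by 0.07. Epicardial and mesothelial markers were higher on replicate 1 in 6 of 8, with a median gap of 2.36, the size of the Tgfbi gap. Endothelial markers (−0.59) and smooth muscle and pericyte markers (−0.51) were higher on replicate 2. Their part in the Tgfbi gap was not tested.

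In neonatal cardiomyocytes the genes went separate ways. Thbs1 was 20.5-fold higher on replicate 2 (rank 27 by size of gap), Fn1 4.14-fold, Tnc 3.69-fold and Sparc 1.98-fold. Thbs2 and Cthrc1 differed by −0.10 and −0.20 on the log2 scale (replicate 1 minus replicate 2), and Postn and Tgfbi were 1.70- and 1.69-fold higher on replicate 1. Fibroblast markers were split there, 6 higher on each array (median gap 0.12), 12 of 12 leukocyte markers were higher on replicate 1, and 10 of 12 endothelial markers as well. Epicardial and mesothelial markers were higher on replicate 2 in 5 of 8 (median gap −0.31), and smooth muscle and pericyte markers on replicate 1 in 5 of 8 (1.19). Their part in these gaps was not tested.

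**Figure D3:**
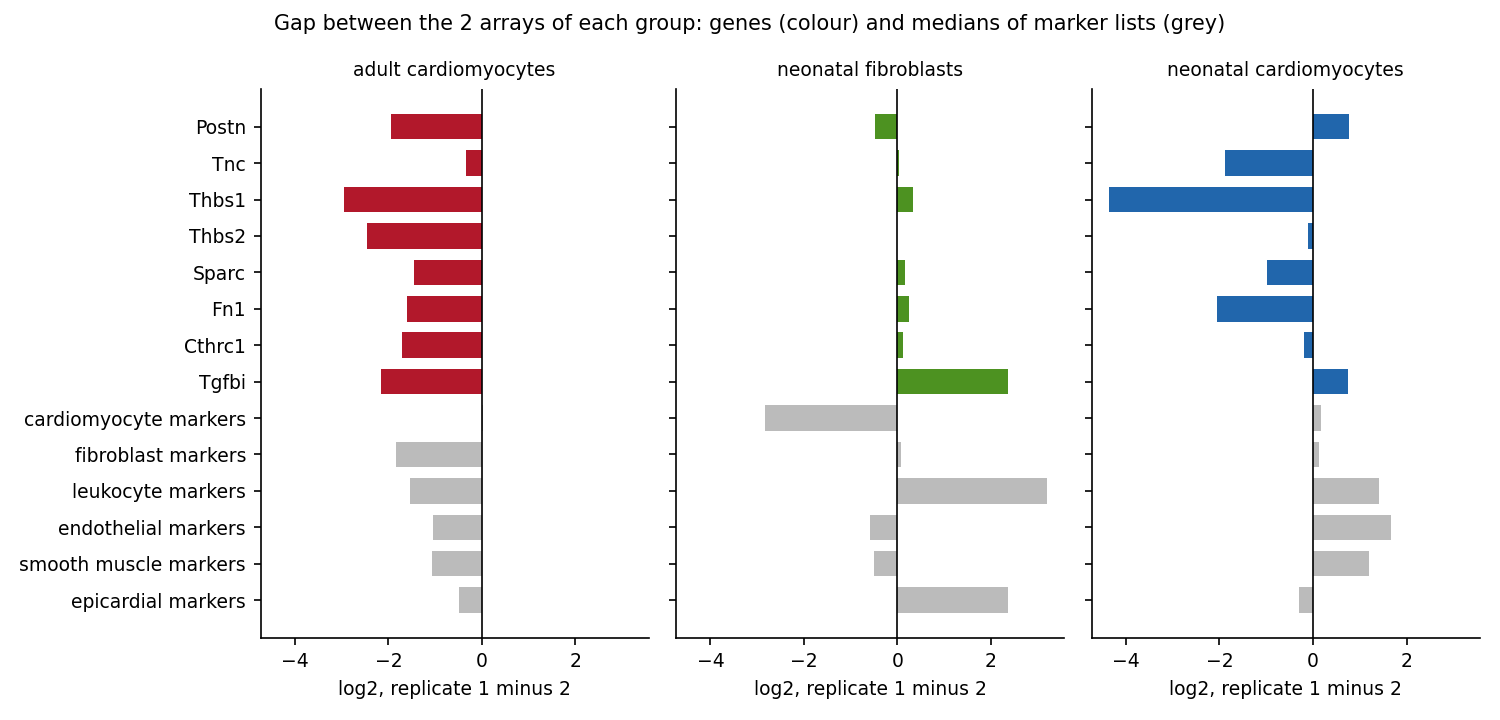
Log2 value on replicate 1 minus replicate 2 (x axis) in each group, for the 8 genes (coloured bars) and the medians of 6 marker lists (grey bars). The adult bars of all 8 genes point to replicate 2, Tgfbi stands out in fibroblasts with 2.36, and Thbs1 reaches −4.35 in neonatal cardiomyocytes.

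These differences between arrays also shape which profiles looked alike. By the root mean square difference of centred log2 profiles over the 6 arrays, the closest pair among the 8 was Tnc and Fn1 (0.56), and the most distant Thbs1 and Tgfbi (1.88). The thrombospondins were 1.39 apart, Postn and Tgfbi 0.99. Over all genes with a range of at least 2 log2 units, the nearest profiles to Fn1 were Col5a2, a fibrillar collagen chain (0.21), Dse (0.25) and Pawr (0.28). Tnc was nearest to the metalloproteinase inhibitor gene Timp2 (0.19), Gpnmb (0.21) and Vnn1 (0.24). Postn was nearest to the noncoding transcript Meg3 (0.30), the Wnt antagonist gene Sfrp1 (0.43) and Slit2 (0.44), and Thbs2 to Col14a1 (0.36), Itgb8 (0.48) and Sfrp1 (0.53).

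Thbs1 was nearest to S100a6 (0.44), the asparagine synthetase gene Asns (0.52) and Glipr1 (0.62). S100a6 shares its high value on neonatal cardiomyocyte replicate 2, at 12.96 there and 8.56 on replicate 1. Tgfbi was nearest to Slit3 (0.44), Slc9a9 (0.46) and Marcksl1 (0.47), and Cthrc1 to Sema3d (0.62), Afap1l2 (0.72) and Tcf21 (0.74), a transcription factor of cardiac fibroblasts. Sparc was nearest to 4930503L19Rik (0.13), 2410006H16Rik (0.16) and Ifi30 (0.17). These values describe 6 arrays that share 3 groups.

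Other probe sets of the same genes gave the same direction in most cases, and some gave other sizes. In fibroblasts against neonatal cardiomyocytes all 18 probe sets were higher in fibroblasts, and 0 passed when all 45037 probe sets were tested, where limma called 0 probe sets in all and passed 5889 at unadjusted p under 0.05. In adult cardiomyocytes against fibroblasts 17 of 18 were lower and 10 fell, beside 13.8% of all probe sets called. The exception was 1458204_at for Sparc, which was flat on every array (5.84 to 6.72) and differed by 0.21, while 1448392_at fell by 3.31. In adult against neonatal cardiomyocytes 17 of 18 were lower and 0 passed, beside 1.12% of all probe sets called. The exception was again 1458204_at, which was higher in adult cells by 0.56.

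For Thbs2 the choice of probe set was close and moved the difference between adult and neonatal cardiomyocytes. The mean over the 6 arrays was 7.76 for the one used, 1422571_at, and 7.75 for 1450663_at. Their adult minus neonatal cardiomyocyte differences were −1.58 and −0.20, and that of 1447862_x_at was −0.08. Against fibroblasts all 3 fell in adult cardiomyocytes, with differences of −4.76, −3.58 and −2.77. Likewise for Tnc, the adult minus neonatal cardiomyocyte difference was −2.20 for 1416342_at and −0.35 for the dimmer 1456344_at (mean over the arrays 4.85). In the same comparison both Fn1 probe sets differed by a similar amount (−3.18 and −3.07), as did both of Thbs1 (−3.06 and −2.99). The 4 Tgfbi probe sets lay between −1.68 and −1.04.

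**Figure D4:**
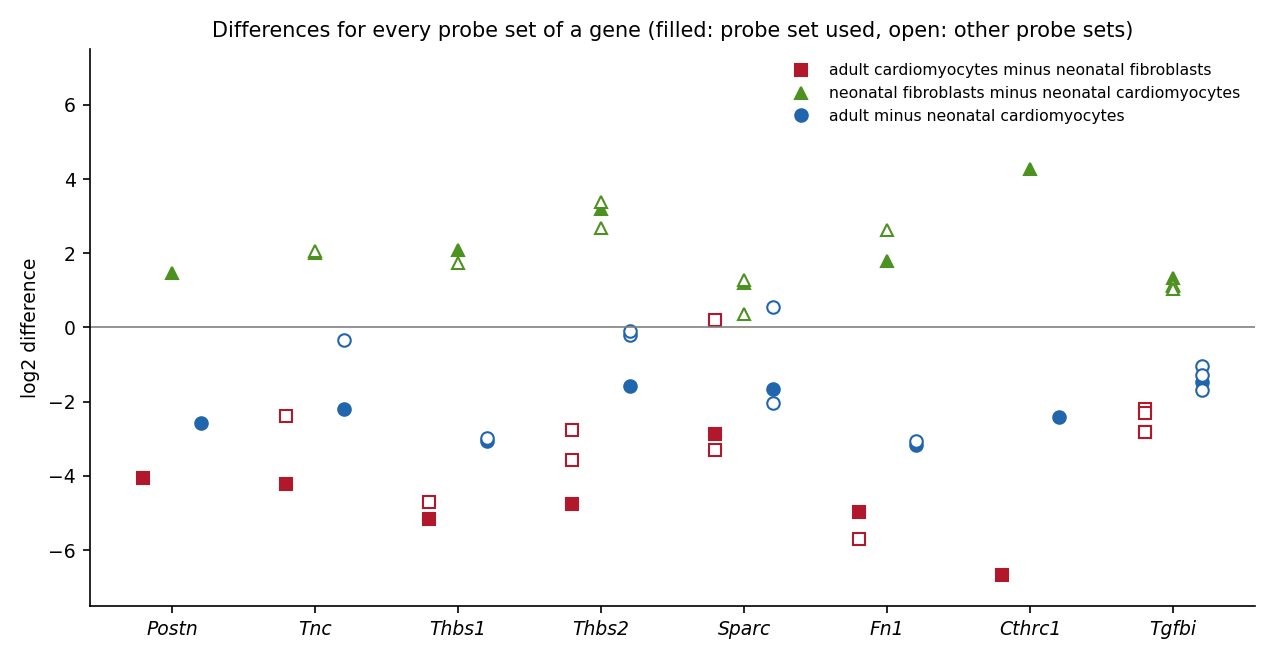
Log2 difference (y axis) in the 3 comparisons for the 18 probe sets annotated to 1 of the 8 genes; filled symbols are the probe sets used, open symbols the others. For Thbs2 the adult minus neonatal cardiomyocyte difference is −1.58 on the probe set used and −0.20 and −0.08 on the others. For Sparc, 1 probe set lies between 0.21 and 0.56 in all 3 comparisons.

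Promoter sequences are shown because the 8 genes shared the same order of group means. RefSeq's table (GRCm38.p6) held 7 start sites for 5 of the genes, and the 120 bases before the most downstream listed start of each are given 5′ to 3′ on the gene's strand. Capitals mark matches on either strand to any motif searched, which were the Smad-binding core CAGACA, the AP-1 site spelled TGACTCA, the TEAD core spelled GGAATG and the TATA box spelled TATAAA. No matches overlap in these stretches, and every match to the Smad core is to its reverse complement.
Postn: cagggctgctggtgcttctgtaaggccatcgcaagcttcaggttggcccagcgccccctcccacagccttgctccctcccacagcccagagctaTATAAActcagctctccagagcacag
Tnc: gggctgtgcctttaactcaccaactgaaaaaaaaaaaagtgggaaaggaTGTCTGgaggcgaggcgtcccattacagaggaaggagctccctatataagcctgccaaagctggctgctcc
Thbs2: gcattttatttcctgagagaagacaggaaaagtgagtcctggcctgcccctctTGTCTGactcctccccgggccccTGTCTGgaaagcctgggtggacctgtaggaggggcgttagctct
Sparc: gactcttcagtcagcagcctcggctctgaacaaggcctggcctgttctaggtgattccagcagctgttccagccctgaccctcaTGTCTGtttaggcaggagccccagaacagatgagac
Tgfbi: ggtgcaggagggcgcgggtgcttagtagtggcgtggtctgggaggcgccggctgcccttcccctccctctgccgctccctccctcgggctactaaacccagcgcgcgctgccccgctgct

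The stretches lie at chr3:54360987-54361106 (plus strand) for Postn, chr4:64046937-64047056 (minus) for Tnc, chr17:14694263-14694382 (minus) for Thbs2, chr11:55420081-55420200 (minus) for Sparc and chr13:56609466-56609585 (plus) for Tgfbi. In the 250 bases before a start, CAGACA occurred at 3 of the 7 starts, in Tnc, Thbs2 (2 matches) and Sparc, against 17.1% of 32851 promoters of that length. TATAAA occurred at 4 of the 7 starts, in Postn, Tnc and Thbs2, against 12.4%, and began 26 bases before the shown start of Postn. The other TATAAA matches lie outside the stretches printed, and those of the overlapping Tnc windows are the same site. The AP-1 and TEAD motifs occurred at 0 of 7 starts, against 4.46% and 12.6% of promoters. A match describes letters only and no binding was measured.

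Relatives of the 8 genes went both ways. Of 27 measured tenascin, thrombospondin, SPARC, fasciclin and fibulin relatives and other matrix glycoproteins, 7 fell and 1 rose in adult cardiomyocytes against fibroblasts, beside 11% of all genes that fell, with a median of −0.02. Fstl1, a follistatin-like SPARC relative, fell by 4.51, Spon2 (−4.43) and Fbln2 (−4.26) fell, and vitronectin (Vtn), an adhesive plasma protein, rose by 3.78. Vtn alone rose in adult against neonatal cardiomyocytes (3.55, adjusted p = 0.0340; list median −0.19). Between fibroblasts and neonatal cardiomyocytes limma called 0 of 27, with a median of −0.00093. At unadjusted p under 0.05, 6 passed (5 of them higher in fibroblasts), beside 2957 of all 18193 genes. The largest differences there were in Sparcl1 (−3.63, adjusted p = 0.389) and Spon2 (3.36, adjusted p = 0.0508). The paralog Thbs4, named after its values were seen, measured 6.51 and 7.21 in adult cardiomyocytes, 5.33 and 7.34 in fibroblasts, and 8.97 and 9.49 in neonatal cardiomyocytes, the highest of the groups. Its fibroblast minus neonatal cardiomyocyte difference was −2.90 (adjusted p = 0.136), opposite in sign to those of Thbs1 and Thbs2.

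Of 21 receptors, 8 fell and 4 rose in adult cardiomyocytes against fibroblasts, beside 11% of all genes that fell and 21% called either way. Their median was −1.47, against 0.09 over all genes. Cd36, a fatty acid transporter that also binds thrombospondins, rose by 4.33, and the integrin chains Itgb8 (−4.30) and Itga4 (−4.17) fell. Lrp1, which clears thrombospondins from the cell surface, fell by 3.29. In fibroblasts against neonatal cardiomyocytes Itgb5, an integrin chain that pairs with the alpha v chain to bind periostin, rose by 1.91 (adjusted p = 0.0441), alone of 21. Its values were 9.75 and 10.04 in adult cardiomyocytes, 12.21 and 11.93 in fibroblasts, and 10.02 and 10.30 in neonatal cardiomyocytes. Limma called 0 of 21 in adult against neonatal cardiomyocytes, with 4 at unadjusted p under 0.05, beside 4157 of all 18193 genes. Itga8 and Sdc1 had the largest differences there, −1.93 and −1.89.

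Of 19 assembly and crosslinking partners, 12 fell and 0 rose in adult cardiomyocytes against fibroblasts, beside 11% of all genes that fell. Their median was −2.59, against 0.09 over all genes. Of the 12 that fell, the collagen crosslinking enzyme gene Lox (−6.64), Col1a1 (−5.45), the membrane metalloproteinase gene Mmp14 (−4.95) and Loxl1 (−4.64) differed most. Loxl1 alone rose in fibroblasts against neonatal cardiomyocytes (3.18, adjusted p = 0.0424; list median 1.20), and Mmp14 alone fell in adult against neonatal cardiomyocytes (−2.89, adjusted p = 0.0348; list median −1.46). Lox measured 7.96 on neonatal cardiomyocyte replicate 1 and 10.95 on replicate 2, the side of the pair on which Thbs1 and Fn1 were higher, and Col1a1 measured 11.07 and 9.22, the other side.

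Among 19 genes of the TGF beta pathway and its responses, 8 fell and 1 rose in adult cardiomyocytes against fibroblasts. Over all genes, 11% fell and 21% were called in either direction. The median was −1.46, against 0.09 over all genes. Ltbp2 (−3.22), the ligand genes Tgfb2 (−3.19) and Tgfb3 (−3.08), and Acta2 (−2.39), smooth muscle actin, fell. The gene that rose, named after its values were seen, was the coreceptor gene Tgfbr3 (1.82). In fibroblasts against neonatal cardiomyocytes limma called 0, with 3 of 19 at unadjusted p under 0.05, beside 2957 of all 18193 genes. The largest differences there were in Ltbp2 (2.41) and Tgfb3 (2.17). In adult against neonatal cardiomyocytes limma also called 0, with 8 of 19 at unadjusted p under 0.05, beside 4157 of all 18193 genes. Cnn1 and Tgfb2 differed there by −2.54 and −2.53. Tgfb1, also named after its values were seen, measured 6.99 and 5.92 in adult cardiomyocytes, 9.41 and 5.72 in fibroblasts, and 6.97 and 5.55 in neonatal cardiomyocytes. In both neonatal groups Tgfbi and the leukocyte markers were higher on the same array as Tgfb1, and in adult cardiomyocytes on the other.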

How the data were processed

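The deposited table holds log2 expression values for 45101 probe sets, 64 of them controls. The authors made these log2 values with RMA (per the submitters' processing notes), which leaves them background-corrected, quantile-normalized and summarised over a probe set's probes; the RMA version and whether the arrays were run together are not given in the sources used here. GEO's platform annotation gave 34945 probe sets 1 gene, 932 several and left 9160 unnamed here. Symbols of the 8 genes were matched to RefSeq (8 of 8). RMA gives no detection call, and the number of arrays limits the precision.

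All 6 arrays entered 1 linear model with 3 group means (limma 3.58.1, R 4.3.3, lmFit and eBayes, 3 residual and 2.18 prior degrees of freedom), tested two-sided with Benjamini-Hochberg adjustment over 18193 genes and a threshold of 0.05. An exact permutation test of 2 arrays against 2 cannot go below p = 0.333 and was not used. The fitting code was run on simulated data with independent noise for each gene and array, without the marker differences between replicates seen here. That run checked the code only and does not bear on the calls. Rose and fell are kept for adjusted p under 0.05. SE is limma's standard error, and per-array values stand in place of SDs.

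The 8 genes and the lists of related genes and markers were chosen with earlier results of these data known, and the lists share members. In each list of related genes the text names up to 4 genes past the threshold by size, or the 2 with the largest difference where none passed. Per gene, the 3 nearest profiles are named. Alternatives were another quantile normalization, a filter on low values, other probe set rules, the titles' grouping, the replicate block, trended robust variance, 2-group fits and leaving out arrays.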

Additional observations from a re-analysis of the deposited data

How the results depend on the processing

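In the comparison of adult cardiomyocytes with fibroblasts the 6 calls among the 8 genes (21% of all genes called) became 0 with the groups of the titles (0.753%), 1 without both neonatal replicate 1 arrays (3.94%) and 2 without both neonatal replicate 2 arrays (8.65%, an alternative chosen after seeing the data), and ranged from 0 to 7 when 1 array was left out. In the comparison of fibroblasts with neonatal cardiomyocytes the 0 calls became 1 (Cthrc1) with the filter on low values, with an adjusted p of 0.0341 and 2.89% of all genes called beside 0.819%, and 1 (Cthrc1) with trended robust variance, with 0.0442 and 1.19%, and ranged from 0 to 1 over left-out arrays. For adult against neonatal cardiomyocytes the 0 calls ranged from 0 to 1 over left-out arrays. All differences of both comparisons with adult cells kept their sign in the alternatives run. Between fibroblasts and neonatal cardiomyocytes the titles' grouping reversed Tnc (−0.96), Thbs1 (−2.34), Thbs2 (−0.045), Sparc (−0.58), Fn1 (−1.15), Cthrc1 (−0.16) and Tgfbi (−0.80), in which the exchange of 2 arrays is the whole change. Thbs1 also turned to −0.26 without both neonatal replicate 1 arrays and ranged from −0.090 (without neonatal cardiomyocyte replicate 1) to 4.26 over left-out arrays. With an arm of 1 array, that array is assumed to vary like the other groups.

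The replicate numbers come from the titles, only 2 numbers exist and no label ties same-numbered arrays to a shared animal or batch, so they were not taken as pairs. The deposited sample numbers run consecutively within each replicate number, with a wide break between the 2. Whether that break marks separate batches is not stated. Deviations of same-numbered arrays correlated over genes at 0.21 (adult cardiomyocytes and fibroblasts), 0.27 (adult and neonatal cardiomyocytes) and 0.18 (fibroblasts and neonatal cardiomyocytes). With the replicate block the calls were 7 in adult cardiomyocytes against fibroblasts, Thbs1 being added with an adjusted p of 0.0402, beside 26.4% of all genes. They were 0 in fibroblasts against neonatal cardiomyocytes (0% of all genes) and 0 in adult against neonatal cardiomyocytes (3.34%). In limma at unadjusted p under 0.05, 5 of the 8 and 3678 of 18193 genes passed in the first of these and 5 and 5040 in the second.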
